A study of Arabidopsis thaliana with 6 samples.

Results

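The 8 genes described here encode type II MADS-domain transcription factors that set the time of flowering in Arabidopsis thaliana. They are the 6 genes of the FLC clade, namely FLC, FLM (also called MAF1), MAF2 (listed as AGL31 in the tables), MAF3, MAF4 and MAF5, together with SVP and its close relative AGL24. They were picked out by their locus identifiers from 34262 listed genes, and all 8 had reads and a test in each comparison. RNA was sequenced from Col-0 seedlings harvested after 14 days in long days at 22 °C, with 2 libraries for each of 3 genotypes: wild type (WT), the mutant jmj28 and the line JMJ28np5-OE. JMJ28 is a JmjC-domain histone demethylase of the KDM3 type, a class that acts on methylated lysine 9 of histone H3. The sources used here do not give the kind of jmj28 allele, the promoter behind JMJ28np5-OE, the number of independent lines or the number of plants in a library.

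FLC and SVP proteins bind together to the regulatory regions of genes that start flowering, such as SOC1, and keep them low until the plant is ready. Winter cold silences FLC through Polycomb proteins, and in Col-0, where the activator FRIGIDA is not functional, FLC is low without any cold. FLM acts with SVP in the response to ambient temperature through alternatively spliced products, and MAF2 to MAF5 are mostly known as further repressors. AGL24 has the opposite role and promotes flowering together with SOC1. Gene-level values such as those used here do not tell the spliced forms of FLM apart.

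The files give, for each gene and pair of genotypes, the higher genotype mean in RPKM (reads scaled to exon length and library depth) and the authors' own test. The whole reads of both libraries were worked back from these means for the highest and the second-highest genotype of a gene. For the lowest genotype only a mean is given below, obtained from the deposited fold change, and its spread between libraries is not known. The libraries carry no replicate number here and are named by depth. They held 19693228 and 14309520 reads in WT, 13549528 and 11791666 in jmj28, and 12380403 and 10632893 in JMJ28np5-OE. JMJ28 itself (listed as B160) stood at 6.90 and 6.50 RPKM in WT, at 244 and 307 RPKM in the JMJ28np5-OE libraries and at a mean of 3.12 RPKM in jmj28, so the genotypes are in the order of their labels. Leaf markers were abundant in all genotypes, with LHCB3 (AT5G54270), RBCS1A (AT1G67090) and CAB3 (AT1G29910) adding up to between 11382 and 12522 RPKM, while the 5 floral organ markers added up to between 2.16 and 7.63 RPKM. Fewer cells of a type and less RNA per cell cannot be told apart in whole seedlings.

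The coding sequence near its start shows how the members are related and how far their reads can be told apart. The 90 bases below encode the first part of the MADS domain, which contacts DNA. The stretch opens with the annotated start codon, except in MAF5, where it begins 21 bases after that codon. The bases were read 5′ to 3′ on the coding strand from the RefSeq genome TAIR10.1, whose nuclear coordinates match those of the files, and capitals mark each base that differs from FLC.
FLC, chr5:3179250-3179339, minus strand: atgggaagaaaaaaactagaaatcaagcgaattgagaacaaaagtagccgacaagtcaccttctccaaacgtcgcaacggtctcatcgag
FLM, chr1:28955679-28955768, plus strand: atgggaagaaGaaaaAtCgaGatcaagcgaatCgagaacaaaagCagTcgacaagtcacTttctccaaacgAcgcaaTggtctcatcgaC
MAF2, chr5:25982415-25982504, plus strand: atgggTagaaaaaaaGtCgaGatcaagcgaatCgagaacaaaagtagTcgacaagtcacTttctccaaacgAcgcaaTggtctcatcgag
MAF3, chr5:25987527-25987616, plus strand: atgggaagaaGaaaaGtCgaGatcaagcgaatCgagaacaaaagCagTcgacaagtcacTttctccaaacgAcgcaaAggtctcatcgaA
MAF4, chr5:25992310-25992399, plus strand: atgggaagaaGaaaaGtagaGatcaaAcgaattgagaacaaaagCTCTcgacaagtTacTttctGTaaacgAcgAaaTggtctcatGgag
MAF5, chr5:25997671-25997760, plus strand: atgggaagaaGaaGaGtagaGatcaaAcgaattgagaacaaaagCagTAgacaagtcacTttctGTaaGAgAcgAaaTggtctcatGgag
SVP, chr2:9580417-9580506, plus strand: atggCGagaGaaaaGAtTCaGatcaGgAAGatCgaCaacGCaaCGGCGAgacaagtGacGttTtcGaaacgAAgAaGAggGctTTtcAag
AGL24, chr4:12673556-12673645, minus strand: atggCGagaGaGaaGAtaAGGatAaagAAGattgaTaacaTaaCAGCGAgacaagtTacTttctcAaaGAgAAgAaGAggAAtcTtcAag

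In this stretch the 5 other clade members shared between 73 and 81 of 90 bases with FLC, and SVP and AGL24 each shared 55 with FLC and 70 with each other. FLM and MAF3, which lie on different chromosomes, shared 87 of 90. Over all annotated exons the longest run identical between any pair of members was 61 bases, between FLM and MAF3, followed by 48 bases between MAF2 and MAF3, 44 between FLM and MAF2, and 43 between MAF4 and MAF5. FLC shared no run longer than 21 bases with any other member. Each of these runs, sought within single exons, is shorter than a sequenced read of 150 bases. No read from a single exon thus lies wholly inside an identical stretch. Runs across joined exons were not examined, so reads that span several exons are not covered. The sources used here do not say how the authors placed reads that match several genes.

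SVP was the most abundant of the 8 genes and FLC one of the scarcest. The order of the genotype means in WT ran from SVP at 39.4 RPKM through AGL24 at 11.2, MAF2 at 10.6, MAF3 at 6.69, FLM at 5.87, FLC at 0.974 and MAF5 at 0.534 to MAF4 at 0.380 RPKM. Neighbours in this order were not all separated by more than the spread between libraries. AGL24 and MAF2 were close in WT, and the libraries of the pair in jmj28 met at the edge, at 12.1 and 13.1 RPKM for AGL24 and 12.1 and 9.70 RPKM for MAF2. In jmj28 the libraries of MAF4 and MAF5 overlapped, and 1 library of MAF5 stood above the lower library of FLC. Within each jmj28 library, however, FLC stood above MAF5, at 0.876 against 0.361 RPKM in the deeper and 1.44 against 0.899 RPKM in the shallower. AGL24 likewise stood above MAF2 within each, though only at 12.14 against 12.10 RPKM in the deeper. The MAF3 libraries of jmj28, at 8.02 and 8.05 RPKM, stood above the FLM libraries, at 6.38 and 6.83 RPKM. That order, and the clade shares, depend on the exon lengths used, 1464 bases for MAF3 and 4480 for FLM, since FLM had more reads, 387 and 361 against 159 and 139. The order of AGL24 and MAF2 depends in the same way on exon lengths of 1155 and 3384 bases. In jmj28 AGL24 had 190 and 178 reads, and MAF2 had 555 and 387.

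**Figure D1:**
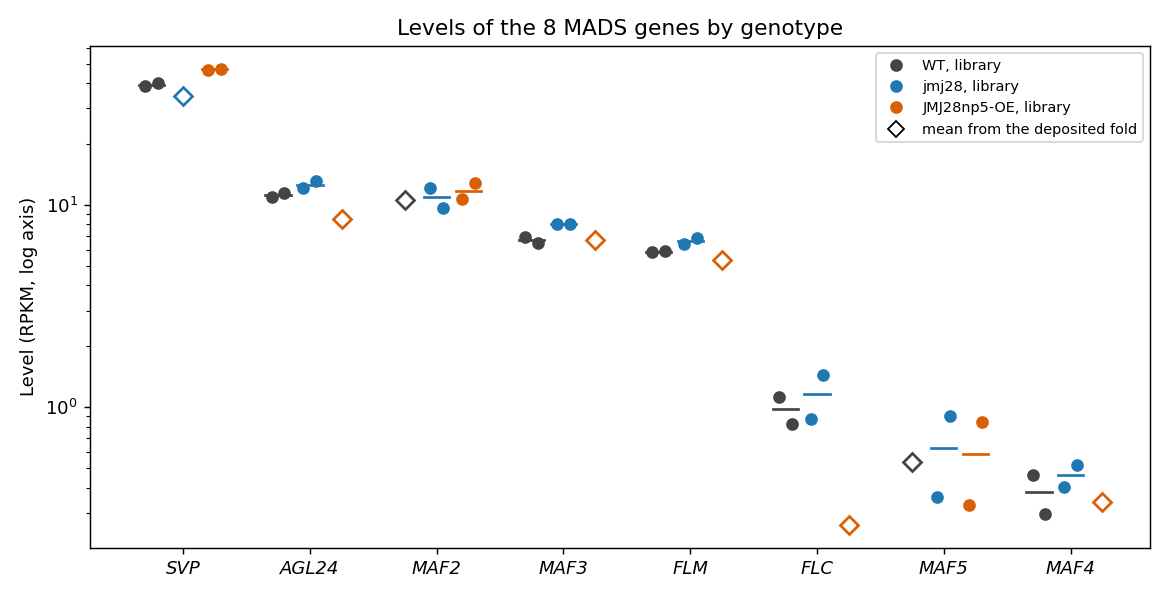
Level in RPKM on a log axis for each of the 8 genes and 3 genotypes. Dots are libraries, short lines are genotype means, and open diamonds are means taken from the deposited fold change for the lowest genotype. SVP is high and tightly grouped in each genotype with known libraries, and the JMJ28np5-OE mean of FLC, at 0.261 RPKM, lies below all 4 known FLC libraries.

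All 6 clade genes had recovered reads in jmj28, which allowed their shares of the clade's summed level to be compared per length in that genotype. The clade added up to 28.1 RPKM in the deeper and 27.4 RPKM in the shallower jmj28 library. MAF2 made up 43.0% and 35.4% of this sum, MAF3 28.5% and 29.3%, and FLM 22.7% and 24.9%. FLC made up 3.11% and 5.24%, MAF4 1.43% and 1.88%, and MAF5 1.28% and 3.28%. The clade's transcript level in these seedlings was thus made up mostly of MAF2, MAF3 and FLM.

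Against WT, no member was called in jmj28 at an FDR under 0.05 in the authors' deposited table, where 1.3% of all tested genes were called. Calls were 0.208% of all genes higher and 1.1% lower. At an unadjusted p under 0.05 the count was 1 of 8, against 8.58% of all genes, and with at least 1.5-fold in addition it was 0 of 8, against 3.34%. Of the members, 7 lay above WT and 1 below, while 49.3% of all tested genes lay above WT. The median log2 fold change of the members was 0.14 beside -0.00 for all genes in the authors' deposited table. The sizes were small, between 0.04 and 0.22 on the log2 scale. The member below WT, and the 1 with an unadjusted p under 0.05, was SVP at -0.19 by the authors' deposited table (p = 0.0449, FDR 0.814). Without 1 known library the sign could also turn for FLC, MAF2, MAF4 and MAF5. Their lowest values were then -0.25, -0.13, -0.11 and -0.62.

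JMJ28np5-OE against WT also gave 0 of 8 members at an FDR under 0.05 in the authors' deposited table, with 3.55% of all genes called, 2.87% higher and 0.684% lower. At an unadjusted p under 0.05 there were 3 of 8 members, beside 14.2% of all genes, and with at least 1.5-fold in addition 1 of 8, beside 4.92%. These were FLC with a log2 fold change of -1.90 (p = 0.0053, FDR 0.138), SVP with 0.27 (p = 0.00282, FDR 0.0903) and AGL24 with -0.39 by the authors' deposited table (p = 0.0211, FDR 0.322). The median of the 8 was -0.07 beside 0.00 for all genes. Over the 5 other members the log2 fold changes lay between -0.17 for MAF4 and 0.20 for MAF2 in the authors' deposited table.

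The mutant and the overexpression line, compared with each other, differed in 3 of the 8 members. SVP was lower in jmj28, and AGL24 and FLC were higher in jmj28, all at an FDR under 0.05 in the authors' deposited table. In this comparison 11.4% of all tested genes were called, 4.12% higher and 7.29% lower in jmj28. An unadjusted p under 0.05 was reached by the same 3 members and by 24.3% of all genes, and with at least 1.5-fold in addition by 1 member and 9.86%. The median over the 8 members was 0.25 beside -0.02 for all genes on the log2 scale. The same 3 genes had the unadjusted p under 0.05 against WT in JMJ28np5-OE, and since the comparisons share those libraries the values are not separate evidence. With 2 libraries against 2 an exact permutation test on a single gene cannot go below a two-sided p of 0.333, so the calls rest on the authors' fit across all genes.

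**Figure D2:**
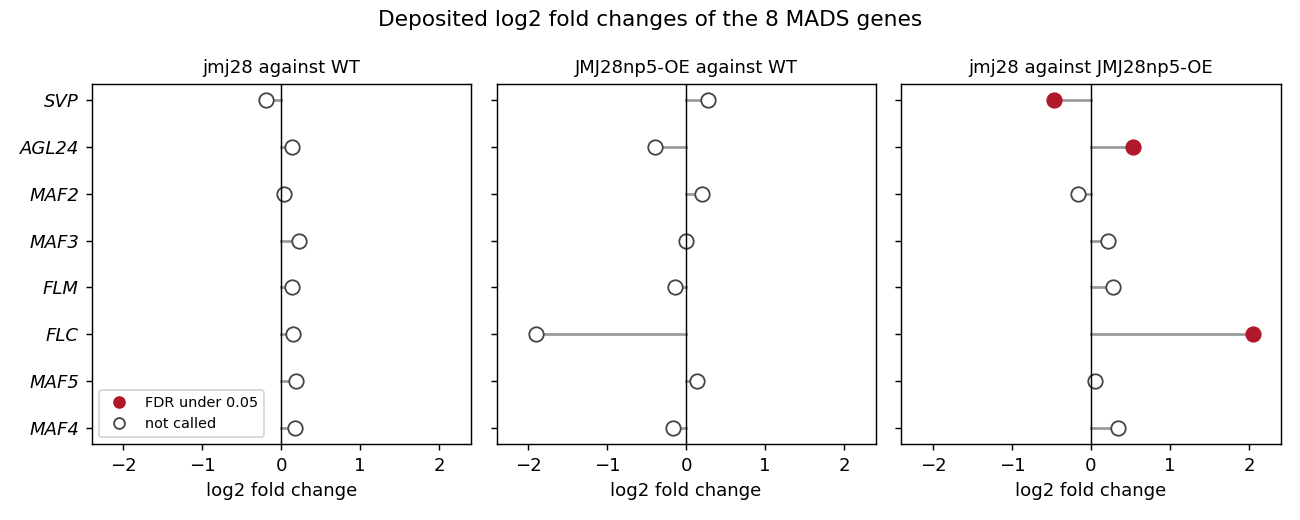
Deposited log2 fold change of each gene in the 3 comparisons, where positive values are higher in the genotype named first. Filled points passed an FDR of 0.05, which only FLC (2.05), AGL24 (0.53) and SVP (-0.46) did, in jmj28 against JMJ28np5-OE.

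SVP (AT2G22540, chromosome 2, 9579647 to 9583901, plus strand, TAIR10) had the smallest FDR of the group. The JMJ28np5-OE libraries held 1033 and 898 reads, which are 46.6 and 47.2 RPKM, and the WT libraries held 1369 and 1025 reads, or 38.8 and 40.0 RPKM. Both JMJ28np5-OE libraries thus lay above both WT libraries, and the libraries of a genotype differed by less than the genotypes did. This difference from WT was not called in the authors' deposited table (FDR 0.0903). The jmj28 mean was 34.6 RPKM by the deposited fold. Between jmj28 and JMJ28np5-OE the log2 fold change was -0.46, a size of 1.38-fold, by the authors' deposited table (FDR 5.54e-05). SVP was also the member whose Bonferroni p passed 0.05, at 0.033 in the authors' deposited table. Leaving out either JMJ28np5-OE library moved this value only between -0.47 and -0.45.

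Among the 14069 other genes of at least 5 RPKM, the 3 whose log2 fold changes against WT were nearest to those of SVP, over both comparisons, were AT1G67900, CYP74A and FAX5. Their distances were 0.0037, 0.0064 and 0.0095 on the log2 scale. CYP74A, the allene oxide synthase of jasmonate synthesis, had -0.18 in jmj28 and 0.27 in JMJ28np5-OE against WT in the authors' deposited table. The likeness rests on 3 genotype means. It was sought among all 14069 genes, where some close match can be found for small changes, and was not tested.

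AGL24 (AT4G24540, chromosome 4, 12670897 to 12674106, minus strand), the flowering promoter of the group, differed between the lines in the opposite direction from SVP. It had 190 and 178 reads in jmj28, which are 12.1 and 13.1 RPKM, and 249 and 190 reads in WT, which are 10.9 and 11.5 RPKM. Both jmj28 libraries lay above both WT libraries by less than the difference to JMJ28np5-OE, whose mean was 8.54 RPKM by the deposited fold. The log2 fold change of jmj28 against JMJ28np5-OE was 0.53, a size of 1.44-fold, by the authors' deposited table (FDR 0.0342). Without 1 jmj28 library it was between 0.47 and 0.58. Neither line passed the FDR against WT for this gene.

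FLC (AT5G10140, chromosome 5, 3173382 to 3179448, minus strand) had the largest fold of the 8 genes and rested on few reads. WT held 26 and 14 reads, or 1.12 and 0.829 RPKM, and jmj28 held 14 and 20 reads, or 0.876 and 1.44 RPKM. The WT and jmj28 libraries overlapped, with 40 and 34 reads in all, whose exact Poisson intervals for counting error alone ran from 28.6 to 54.5 and from 23.5 to 47.5. For JMJ28np5-OE the deposited fold gives a mean of 0.261 RPKM, which corresponds to about 7.1 reads over both libraries together. The log2 fold change of jmj28 against JMJ28np5-OE was 2.05, a size of 4.14-fold, by the authors' deposited table (FDR 0.0396). Against WT the log2 fold change of JMJ28np5-OE was -1.90, a size of 3.73-fold, and did not pass the FDR in the authors' deposited table. At this depth 1 FLC read was worth between 0.043 and 0.080 RPKM. Without 1 jmj28 library the call's log2 value was between 1.65 and 2.36.

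The FLC locus also gives rise to antisense transcripts, known as COOLAIR, which take part in silencing FLC. The tables list an antisense gene (AT5G01675, chromosome 5, 3173371 to 3179600, plus strand, annotated as a long non-coding RNA) that overlaps FLC over its whole length. Its mean was 0.235 RPKM in jmj28 and 0.0753 RPKM in WT, and whole reads could not be worked out from either. For JMJ28np5-OE the deposited fold gives 0.00714 RPKM, about 0.2 reads over both libraries together. At levels this low the order of the genotypes says little. The antisense gene passed no comparison, with unadjusted p-values of 0.283 for jmj28 against WT, 0.307 for JMJ28np5-OE against WT and 0.152 between the lines in the authors' deposited table. The TruSeq RNA kit used does not mark strand, so reads from FLC and from its antisense transcripts cannot be told apart by strand.

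The genes on either side of FLC are known as DFC and UFC, for downstream and upstream of FLC, and both were called between the lines, in opposite directions. DFC (AT5G10130, 680 bases from FLC) was at 11.6 and 13.4 RPKM in jmj28 and at 11.1 and 8.36 RPKM in WT, with a mean of 7.53 RPKM in JMJ28np5-OE by the deposited fold. It was higher in jmj28 than in JMJ28np5-OE, as FLC was, with a log2 fold change of 0.69 by the authors' deposited table (FDR 0.0462). UFC (AT5G10150, 2489 bases from FLC) measured 5.82 and 7.98 RPKM in the JMJ28np5-OE libraries, against 5.58 and 5.67 RPKM in those of WT, with a mean of 4.11 RPKM in jmj28. It was lower in jmj28 than in JMJ28np5-OE, with a log2 fold change of -0.77 by the authors' deposited table (FDR 0.0129). DFC and UFC were 2 of 11 genes next to or overlapping the members, and the other 9 passed no comparison. This count stands beside 11.4% of all tested genes called between the lines. None of the 11 passed the FDR against WT.

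FLM (AT1G77080, chromosome 1, 28955483 to 28960234, plus strand) is the temperature-dependent partner of SVP and passed no comparison. WT gave 5.84 and 5.90 RPKM, from 515 and 378 reads, and jmj28 gave 6.38 and 6.83 RPKM, from 387 and 361 reads. The JMJ28np5-OE mean was 5.33 RPKM by the deposited fold. The log2 fold change between jmj28 and JMJ28np5-OE was 0.27 by the authors' deposited table (p = 0.0625, FDR 0.345). Its annotated exons, pooled over all transcript forms, cover 4480 of 4752 bases, so the gene-level count takes in nearly every intron.

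MAF2, MAF3, MAF4 and MAF5 lie in tandem on the plus strand of chromosome 5, between 25982254 and 26002619, with gaps of 873, 780 and 1301 bases. The first pair of the array was more abundant than the last pair. MAF2 was at 12.1 and 9.70 RPKM in jmj28 and at 10.6 and 12.8 RPKM in JMJ28np5-OE, libraries that overlap between the genotypes. MAF3 was at 8.02 and 8.05 RPKM in jmj28 and at 6.94 and 6.44 RPKM in WT. Its jmj28 libraries lay above its WT libraries, by a log2 fold change of 0.22 that was not called in the authors' deposited table (FDR 1.00). For JMJ28np5-OE against WT the log2 fold change of MAF3 was -0.000135 in the authors' deposited table. The JMJ28np5-OE mean worked out from it, 6.69 RPKM, only restates that fold.

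MAF4 and MAF5, at the far end of the array, rested on few reads. MAF4 had 15 and 7 reads in WT and 9 and 10 reads in jmj28, or 0.463, 0.297, 0.404 and 0.515 RPKM in that order. MAF5 had 6 and 13 reads in jmj28 and 5 and 11 reads in JMJ28np5-OE, or 0.361, 0.899, 0.329 and 0.843 RPKM in that order. For both genes the libraries of the genotypes overlapped, and in MAF5 the libraries within a genotype differed more than the genotypes did. The log2 fold changes, at most 0.34 in size for MAF4 and 0.18 for MAF5 in the authors' deposited table, were not called in any comparison.

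**Figure D3:**
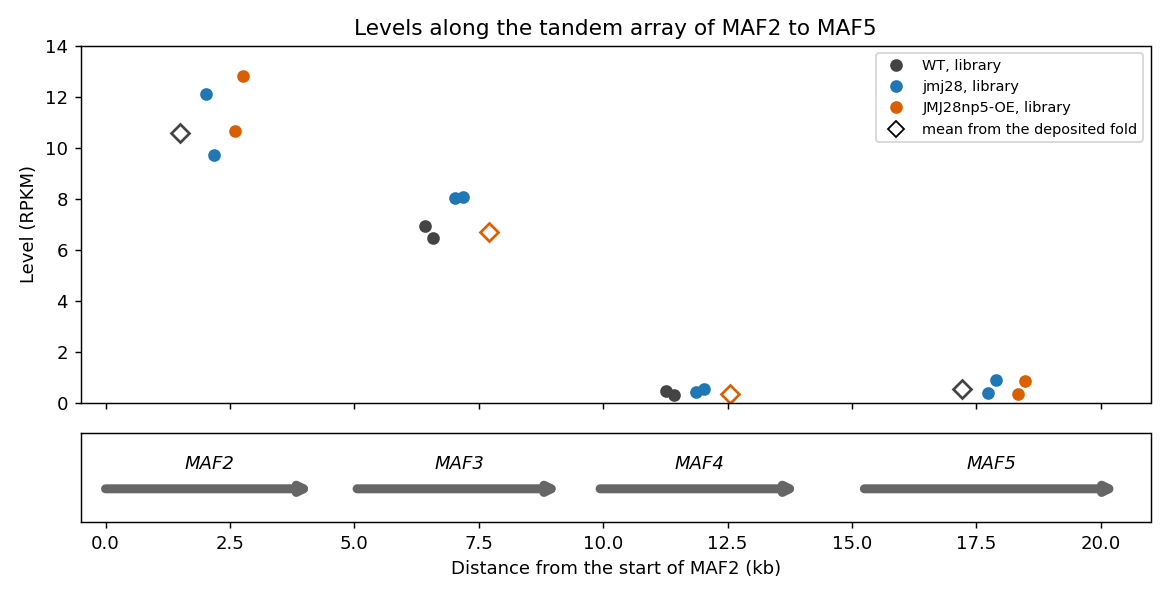
Level in RPKM of the 4 tandem genes, drawn above their positions in kilobases from the start of MAF2. Dots are libraries and open diamonds are means from the deposited fold change. MAF2 and MAF3 lie between 6.44 and 12.8 RPKM in every known library, and MAF4 and MAF5 lie below 1 RPKM.

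Of the genes that act on FLC and are on the lists below, 1 was called in any comparison. Of all tested genes 1.3% were called in jmj28 against WT, 3.55% in JMJ28np5-OE against WT and 11.4% between the lines. Of 21 FLC activators (the FRIGIDA-associated, Paf1 complex, SWR1 complex and histone-modifying factors), none was called in any comparison in the authors' deposited table. The smallest p-values were those of SUF4 and EFS in jmj28, SUF4 and VIP3 in JMJ28np5-OE, and VIP3 and EFS between the lines. VIP3, a Paf1-associated subunit, had -0.35 (FDR 0.302) in JMJ28np5-OE against WT, and EFS, a histone methyltransferase, had 0.27 (FDR 0.253) between the lines in the authors' deposited table. The autonomous pathway, which lowers FLC, gave 0 calls of 12. Its member with the smallest p between the lines was FLD, a histone demethylase, at 0.35 by the authors' deposited table (FDR 0.16). Of 13 vernalization and Polycomb genes 1 was called, MSI1, a subunit shared by Polycomb and chromatin assembly complexes, which was higher in JMJ28np5-OE than in WT, at 0.38 on the log2 scale by the authors' deposited table (FDR 0.00981). EMF2, another Polycomb subunit, had 0.37 (FDR 0.158) in the same comparison in the authors' deposited table. VIN3, which is induced by winter cold, had 2 reads in jmj28, 2 in WT and a highest genotype mean of 0.0373 RPKM.

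Of 12 targets and partners of FLC and SVP, 5 were higher in JMJ28np5-OE than in WT, and the same 5 were lower in jmj28 than in JMJ28np5-OE, namely SOC1, SEP3, AP1, TEM1 and TEM2. Of all tested genes 2.87% were called higher and 7.29% lower in these comparisons, which share the JMJ28np5-OE libraries, so that the second count is not separate evidence. FT, another target of FLC and SVP, is not among the 12, and its deposited values do not add up over the comparisons. The median over the 12 was 0.57 in JMJ28np5-OE against WT, beside 0.00 for all genes on the log2 scale. TEM1 and TEM2, repressors of flowering, were in addition lower in jmj28 than in WT, with log2 fold changes of -1.08 (FDR 4.97e-07) and -1.04 by the authors' deposited table (FDR 7.12e-05). TEM1 varied within WT, at 35.6 and 23.2 RPKM, and stood at 39.5 and 49.3 RPKM in JMJ28np5-OE. TEM2 was at 35.9 and 19.7 RPKM in WT and at 44.1 and 50.3 RPKM in JMJ28np5-OE. The list thus holds both promoters and repressors of flowering that were higher in JMJ28np5-OE.

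SOC1, the integrator of flowering signals that FLC and SVP repress, measured 29.3 and 31.4 RPKM in the JMJ28np5-OE libraries, against 22.4 and 24.1 RPKM in those of jmj28. The libraries of the lines did not overlap. Between jmj28 and JMJ28np5-OE its log2 fold change was -0.44 (FDR 0.000687), in the same direction and of about the same size as that of SVP, in the authors' deposited table. SEP3, a floral organ identity gene, measured 10.5 and 10.3 RPKM in the JMJ28np5-OE libraries, against 4.39 and 4.18 RPKM in those of WT. AP1, which specifies floral meristems, measured 1.71 and 1.67 RPKM in the JMJ28np5-OE libraries, against 0.670 and 0.481 RPKM in those of WT. Between the lines their log2 fold changes were -1.44 (FDR 3.54e-09) and -2.46 by the authors' deposited table (FDR 0.00013).

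The CArG box is the DNA element that MADS-domain proteins bind. In the 1000 bases before and 50 bases after the annotated gene start, 2 of the 12 targets and partners (SOC1 and TEM1) and 1 of the 8 members (FLM) held a match to the strict CArG box, whose letters match both strands at once. Such a match was found in 7.72% of 27444 protein-coding genes of the nuclear chromosomes. The SOC1 match, 711 bases upstream of the gene start, stands in capitals within 100 bases of the RefSeq genome TAIR10.1, read 5′ to 3′ on the strand of the gene. A match is a description of the sequence and not a measured site.
SOC1, chr2:18811782-18811881, minus strand: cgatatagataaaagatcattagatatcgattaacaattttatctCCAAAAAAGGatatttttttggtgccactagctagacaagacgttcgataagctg

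Of 10 other MADS genes of flowering, 9 had reads. Of all tested genes 2.87% were called higher in JMJ28np5-OE than in WT, and 7.29% lower in jmj28 than in JMJ28np5-OE. AGL6 and AGL42 were higher in JMJ28np5-OE than in WT, by 3.62 (FDR 0.0269) and 1.01 (FDR 0.0272) on the log2 scale in the authors' deposited table. AGL6, a gene of floral development, rested on 10 and 17 reads in JMJ28np5-OE and 3 and 0 in jmj28. AGL42 measured 3.68 and 2.76 RPKM in the JMJ28np5-OE libraries, with a mean of 1.67 RPKM in WT by the deposited fold. Its jmj28 libraries were at 2.07 and 1.80 RPKM. Between the lines AGL42 was not called in the authors' deposited table (FDR 0.0792). AGL6 and ANR1 were lower in jmj28 than in JMJ28np5-OE. ANR1, known from the root response to nitrate, had -1.80 (FDR 0.0404) on the log2 scale in the authors' deposited table.

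Markers of other tissues moved with the contrast between the lines. All 5 floral organ markers were below JMJ28np5-OE in jmj28, 4 of them called (AP3, AG, SEP1 and SEP2), with a median log2 fold change of -2.46. Their summed mean level was 7.63 RPKM in JMJ28np5-OE, 3.07 in WT and 2.16 in jmj28. Of 5 shoot meristem markers STM was called, lower in jmj28 than in JMJ28np5-OE, at -0.81 by the authors' deposited table (FDR 0.00751), and the list had summed means of 15.0, 11.8 and 9.92 RPKM in the same order. WUS, with 4 reads in each line, and CLV3, with 1 read in each, say little on direction. The floral organ means were taken from the deposited fold for 4 genes in jmj28 and 1 in WT. For the meristem list it was 3 genes in jmj28 and 2 in WT. By that fold AP3, AG, SEP1 and SEP2 had about 11.0, 1.2, 18.4 and 5.7 reads over both jmj28 libraries together. All 15 root markers lay above JMJ28np5-OE in jmj28 with a median of 0.46, and 4 were called (CASP1, CASP4, RHD6 and TIP2;3). In this comparison 48.2% of all tested genes lay above 0, with 4.12% called higher and 7.29% called lower in jmj28. Against WT, TIP2;3 was called higher in jmj28, and SEP1, SEP2 and the leaf marker LHCB3 were called higher in JMJ28np5-OE, as LHCB3 was against jmj28. Of all tested genes 0.208% were called higher than WT in jmj28 and 2.87% in JMJ28np5-OE. The 15 root markers had summed means of 187 RPKM in JMJ28np5-OE, 182 in WT and 232 in jmj28. TIP2;2 alone gave 113, 100 and 123 RPKM of these sums in the same order. Taken singly, 11 of the 15 root markers were lower in JMJ28np5-OE than in WT and 4 were higher, and the median was -0.19. In that comparison 50.6% of all tested genes lay above WT. The root means were taken from the deposited fold for 11 genes in JMJ28np5-OE and 4 in WT. The part of these tissues in the differences of FLC, SVP and AGL24 was not tested.

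**Figure D4:**
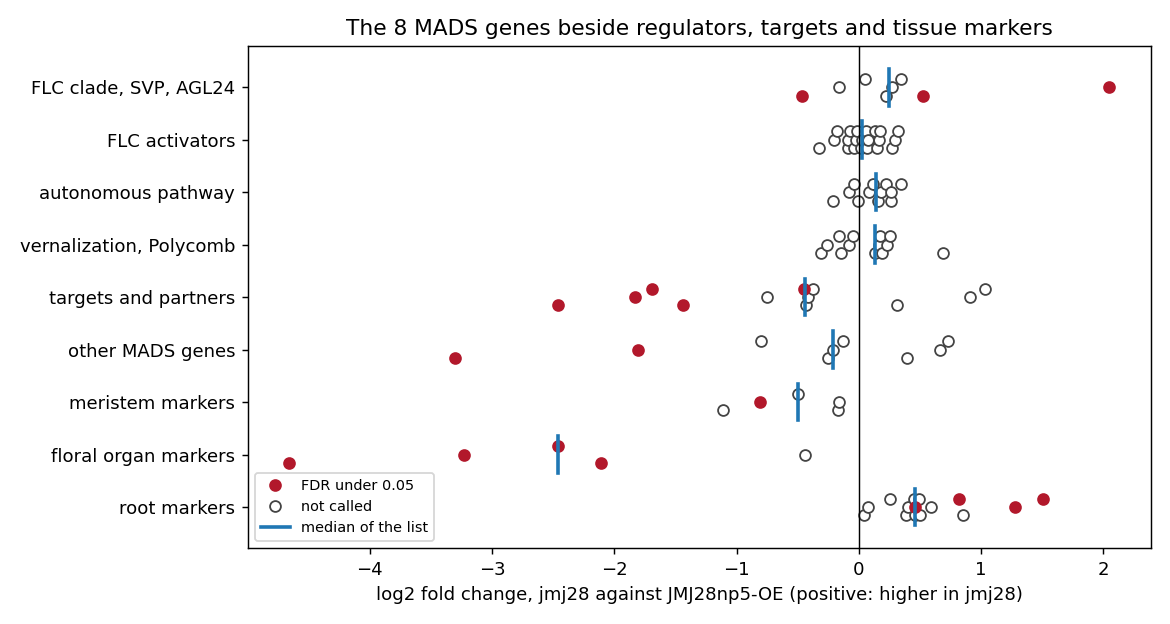
Deposited log2 fold change of jmj28 against JMJ28np5-OE for the 8 genes and for lists of regulators, targets and tissue markers. Each point is a gene, filled where the FDR is under 0.05, and vertical bars are list medians. FLC at 2.05 is the highest and SVP at -0.46 the lowest of the 8 genes, and the root marker points all lie above 0.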

How the data were processed

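Total RNA of 6 seedling libraries, 2 per genotype, was sequenced on a NovaSeq 6000 in pairs of 150 bases, and samples were grouped by genotype, per the labels. Reads were assigned to TAIR10 according to the submitters' processing notes, and the sources used here name no aligner, counter or test. Tables as deposited contain log2 fold changes, signed fold changes, p-values and FDR of the authors, per the file headers. The level deposited by the authors behaves as a genotype mean in RPKM, since with union exon lengths it yields whole reads.

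Library totals were taken as the most frequent whole numbers among single-read genes, and whole reads were then worked out within 1e-06. This gave 1 solution for 95.2% of 46677 means and more than 1 for 0. Tested on simulated data, it returned the true reads for 1000 of 1000 genes. Of 34262 listed genes 32548 were found in the RefSeq annotation of TAIR10.1, and 32532 of these had the same start and end. Counts over all genes use 23540 tested genes, without 2 flowering genes, CO and FT, whose log2 fold changes do not add up over the 3 comparisons. For all other tested genes these values add up. Calls are the authors' FDR under 0.05, since the lowest genotype of a gene has no known reads and no count test could be refitted. The members and lists were chosen with earlier results of these data known. Named genes are the members, their neighbours and, per list and comparison, all calls and the 2 smallest p-values. Python 3.11.15, pandas 2.3.3, scipy 1.17.1 and Biopython 1.88 were used. Nothing says the libraries came from separate plants, so the p-values cannot be taken to cover the spread between plants. How the authors' unnamed test estimated the spread between libraries is not known.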

Additional observations from a re-analysis of the deposited data

How the results depend on the processing

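The count of 3 members called between jmj28 and JMJ28np5-OE stayed at 3 when the p-values were adjusted over genes with reads only or over genes of at least 1 RPKM. It became 1 at an FDR under 0.01 (SVP), 1 by the Bonferroni p (SVP) and 1 under the rule of the authors' short list, an unadjusted p under 0.05 with at least 1.5-fold (FLC). In JMJ28np5-OE against WT the count of 0 became 1 under that last rule (FLC), and in jmj28 against WT it was 0 under every setting run. SVP in JMJ28np5-OE against WT came to an adjusted p of 0.062 over genes with reads and 0.0502 over genes of at least 1 RPKM. FLC in that comparison is below 1 RPKM and has no value under that filter.

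Leaving out 1 known library at a time gave 64 values, of which 4 moved by more than 1.5-fold, all of MAF5, and 11 changed sign, none of them called. The deposited log2 fold changes stood at a median of -0.03, 0.02 and -0.06 from the log2 ratios of RPKM means in jmj28 against WT, JMJ28np5-OE against WT and jmj28 against JMJ28np5-OE. No paired analysis was possible because the tables hold no value per library with a replicate number. The lowest genotype of each member has no known libraries, so the calls for FLC, SVP and AGL24 could not be recomputed without each library of that genotype.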
